A study of Mus musculus with 2 samples.

Results

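The 10 genes described here encode proteins that make, carry or consume adenosine and related nucleosides: Ada, Adk, Pnp, Ahcy, Ampd3, Slc29a1, Slc29a3, Entpd1, Nt5e and Upp1. They were found by symbol among the probe sets that carry a single gene symbol in the platform annotation, which gave 15 probe sets for the 10 genes, out of 12393 genes so named on the array. RAW 264.7 cells, a mouse macrophage-like tumour line, received IFN-gamma at 1000 U/ml, or the same IFN-gamma with adenosine at 300 uM, for 4 h. RNA of 2 experiments was pooled per treatment and hybridized to 1 Affymetrix array each. Both groups therefore carry IFN-gamma, no untreated array and no array of adenosine alone was analysed here, and no difference below has a replicate check or a test.

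Adenosine is made outside cells from ATP by a pair of surface enzymes in series, the ectonucleotidases encoded by Entpd1 (CD39) and Nt5e (CD73), and it enters cells through equilibrative nucleoside transporters. Inside, it is phosphorylated to AMP by adenosine kinase or deaminated to inosine by adenosine deaminase, and inosine is then split by purine nucleoside phosphorylase. Macrophages respond to adenosine through G-protein coupled receptors, whose genes were not analysed here, and the enzymes and carriers above help to set how much of it reaches those receptors.

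The adenosine array was dimmer over most of its range. Its signals were multiplied by 2.82, by which the median log2 ratio (adenosine array over IFN-gamma array), -1.50 as deposited, became 0. Signals of that array are given on this median-centred scale unless called deposited. Bacterial and phage control transcripts, read by 18 probe sets, had a deposited median of -0.53 ± 0.19 (SD, n = 18 probe sets), so centring on genes and centring on these controls differ by 0.97 on the log2 scale. The floor was 44.0, at the 50th percentile of the scaled values; dimmer signals were raised to it, and a gene under it on both arrays was left unmeasured. The error given is the SD of a single log2 ratio, 0.52, estimated from the disagreement of probe set pairs in 2375 genes. Variation from culture to culture or array to array is not part of it. Of 17 macrophage markers 16 were measured, whereas none of the markers of granulocytes and mast cells, of fibroblasts, endothelium and epithelium, or of erythroid cells was. Among the markers of T and B cells, Ighm and Zap70 were measured.

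Upp1, the uridine phosphorylase gene, held the lowest ratio of the 10 genes, and Ampd3, which encodes an AMP deaminase, was the other gene at least 2-fold lower with adenosine. Ada, Slc29a1 and Ahcy lay above the array median, all 3 turning negative with spiked-in scaling or in the deposited values. Adk, Pnp, Entpd1 and Slc29a3 lay below it, and these 7 were short of 2-fold. Nt5e was below the floor on both arrays. Thus 9 of 10 genes were measured, 2 of the 9 (22.2%) were at least 2-fold lower and 0 were 2-fold higher. Among all 6818 measured genes, 10.1% were called lower and 4.52% higher at this threshold, and 1 lower gene fewer among the 9 would give 11.1%, near that background. The median log2 ratio of the 9 genes was -0.38, against -0.08 over all measured genes. In RNA from whole cultures, fewer cells holding a transcript and less of it per cell cannot be told apart.

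Regulatory sequence is shown here for the gene with the lowest ratio (Upp1), the deaminase gene on the other side of the array median (Ada) and the surface enzyme gene at the start of extracellular adenosine formation (Entpd1). Each is the 250 bases before a RefSeq gene start on GRCm38.p6, written in the direction of transcription. Upp1 and Entpd1 have further RefSeq starts whose sequence is not printed, and which start these cells use was not measured. Capitals mark matches to TTCNNNGAA, the form of the interferon gamma activated site, or to TGACG on either strand, the core of the cAMP response element.
Upp1, chr11:9117758-9118007, plus strand: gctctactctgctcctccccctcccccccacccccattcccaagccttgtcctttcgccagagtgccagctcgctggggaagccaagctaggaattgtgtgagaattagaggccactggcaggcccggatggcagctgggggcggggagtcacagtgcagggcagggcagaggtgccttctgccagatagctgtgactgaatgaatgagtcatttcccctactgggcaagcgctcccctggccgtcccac
Ada, chr2:163750240-163750489, minus strand: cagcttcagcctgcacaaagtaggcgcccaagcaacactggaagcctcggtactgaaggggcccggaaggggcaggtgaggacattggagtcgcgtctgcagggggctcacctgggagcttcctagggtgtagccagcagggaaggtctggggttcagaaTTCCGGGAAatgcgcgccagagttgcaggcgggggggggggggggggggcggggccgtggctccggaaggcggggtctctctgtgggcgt
Entpd1, chr19:40612116-40612365, plus strand: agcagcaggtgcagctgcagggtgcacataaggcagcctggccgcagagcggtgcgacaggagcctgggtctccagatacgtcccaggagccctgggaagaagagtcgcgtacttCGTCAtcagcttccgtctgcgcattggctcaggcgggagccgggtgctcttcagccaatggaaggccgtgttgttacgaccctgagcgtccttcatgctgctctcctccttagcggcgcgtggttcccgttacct

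All 10 genes had at least 1 window of 300 bases (250 before to 50 after a start) in the RefSeq table, 23 windows in all, and 4 motifs were searched on both strands. TTCNNNGAA was found in 1 of the 23 windows, that of Ada, where the match begins at position -90 from the start, against 8.30% of all 32851 windows. The interferon stimulated response element, searched as a repeat of GAAA with 2 free bases between, was in 0 of the 23 and in 3.44% of all windows. The whole cAMP response element TGACGTCA was in 0 of the 23 and in 1.79% of all windows. Its core TGACG, which any whole element also contains, was in 4 windows of 3 genes (Adk, Slc29a1 and 2 windows of Entpd1) and in 20.8% of all windows. The Upp1 and Ampd3 windows held none of the 4. These matches describe letters only, and no binding was measured.

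Outside the cell, Entpd1 hydrolyses ATP and ADP to AMP. Its brighter probe set had signals of 70.0 with IFN-gamma and 34.1 with adenosine. The adenosine signal lay below the floor, so the gene was at least 1.59-fold lower (log2 ratio -0.67). Without the floor the ratio of these signals was 2.05-fold. A second Entpd1 probe set, at 22.7 and 15.2, did not reach the floor. Nt5e, which turns AMP into adenosine, was at 26.3 with IFN-gamma and 42.0 with adenosine, both below the floor, and no ratio is given for it. Of the 6 signals of the extracellular pair, only that of the first Entpd1 probe set with IFN-gamma was above the floor.

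Of the transporter genes, Slc29a1 lay above the array median and Slc29a3 close to the floor. Slc29a1 encodes ENT1, the equilibrative nucleoside transporter of the plasma membrane. It was at 446.3 with IFN-gamma and 697 with adenosine, a log2 ratio of 0.64, the highest of the 9 genes, and 11.1% of all measured genes lay higher. Slc29a3 encodes ENT3, a transporter of lysosomes and other inner membranes. Its brighter probe set was at 59.8 and 53.8 (log2 ratio -0.15), and its other probe set was below the floor at 11.0 and 17.8. The log2 ratios of the 2 transporter genes differed by 0.79, about the SD of 0.73 expected for such a difference from probe set scatter. In the deposited values the Slc29a1 signal was lower with adenosine (247.3), as it was for every measured gene of the 9.

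**Figure D1:**
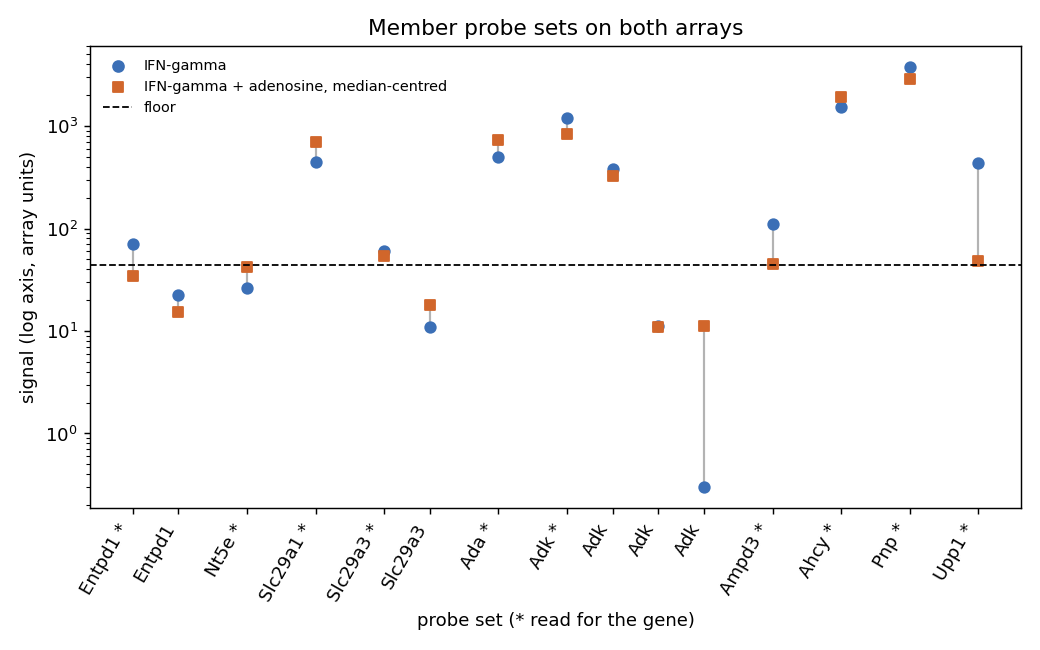
Signals of the 15 probe sets of the 10 genes (log axis, array units) with IFN-gamma (circles) and with IFN-gamma plus adenosine after median centring (squares); the dashed line is the floor of 44.0 and an asterisk marks the probe set read for the gene. The Upp1 squares and circles stand farthest apart among probe sets above the floor, at 433.8 and 48.8, and 5 of the 15 probe sets stay under the floor throughout.

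Inside the cell, the genes of the competing fates of adenosine lay on opposite sides of the array median. Ada, the adenosine deaminase gene, was at 504.3 with IFN-gamma and 726 with adenosine, a log2 ratio of 0.53. Adk, the adenosine kinase gene, was at 1195.9 and 845 by its brightest probe set, a log2 ratio of -0.50. Its second measured probe set was at 383.4 and 328, a log2 ratio of -0.23. The other two Adk probe sets did not reach the floor, with 11.1 and 11.0 in the first and 0.3 and 11.3 in the second. The difference between the Ada and Adk log2 ratios was 1.03 with the brightest Adk probe set and 0.75 with the second. A factor common to an array cancels in such a difference of signals without a floor, and its SD from probe set scatter was 0.73. The opposite signs themselves depend on the centring: with spiked-in scaling both were negative (-0.44 for Ada and -1.47 for Adk), as they were in the deposited values (-0.97 and -2.00).

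Ampd3, which encodes the AMP deaminase isoform first known from erythrocytes, converts AMP to IMP and so draws on the product of adenosine kinase. It was at 110.0 with IFN-gamma and 45.4 with adenosine, 2.42-fold lower (log2 ratio -1.28). The adenosine signal was just above the floor of 44.0. Of all measured genes 5.85% had a lower ratio. Ampd2, the AMP deaminase gene of many tissues and not among the 10 genes, had a log2 ratio of -0.08 (1534.3 and 1452), with a second probe set at 0.86. The 2 deaminase genes differed by -1.20 in log2 ratio.

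Ahcy encodes S-adenosylhomocysteine hydrolase, which releases adenosine and homocysteine as the methylation cycle turns. It was at 1537.1 with IFN-gamma and 1909 with adenosine, a log2 ratio of 0.31. Genes in the brightest of 4 signal groups, to which it belongs, had a probe set SD of 0.41, so this ratio lay within 1 SD of 0. The related gene Ahcyl1 differed from Ahcy by 0.10 in log2 ratio.

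Pnp, the purine nucleoside phosphorylase gene, which splits inosine and guanosine, had signals far above the floor on both arrays. It was at 3778.5 with IFN-gamma and 2899 with adenosine, a log2 ratio of -0.38. A further probe set is assigned to both Pnp and its neighbouring copy Pnp2, and for that reason falls outside the 15. It was at 2498.1 and 1582, a log2 ratio of -0.66. How far the copy contributes to either signal was not tested.

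Upp1 splits uridine to uracil and ribose phosphate, the pyrimidine counterpart of the reaction of Pnp. Its single probe set was at 433.8 with IFN-gamma and 48.8 with adenosine, where the deposited signal was 17.3. The median-centred signals gave an 8.90-fold lower value (log2 ratio -3.15), with the adenosine signal just above the floor of 44.0. With the floor at the 67th percentile the adenosine signal lay below it, and the log2 ratio was then -1.39 as a bound. In the deposited values the adenosine signal lay below that setting's floor of 24.5, which gave a bound of -4.15. Genes in its signal group had a probe set SD of 0.57. That group is set by the mean signal of both arrays, and the SD comes from probe sets above the floor on both. It was not estimated for a ratio with 1 bright signal and 1 next to the floor. Upp1 was the 10th lowest of the 6818 measured genes. The Upp1 and Pnp log2 ratios, of genes that encode nucleoside phosphorylases of different substrate, differed by -2.77. No second probe set was available for Upp1, so its value rests on 1 probe set.

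**Figure D2:**
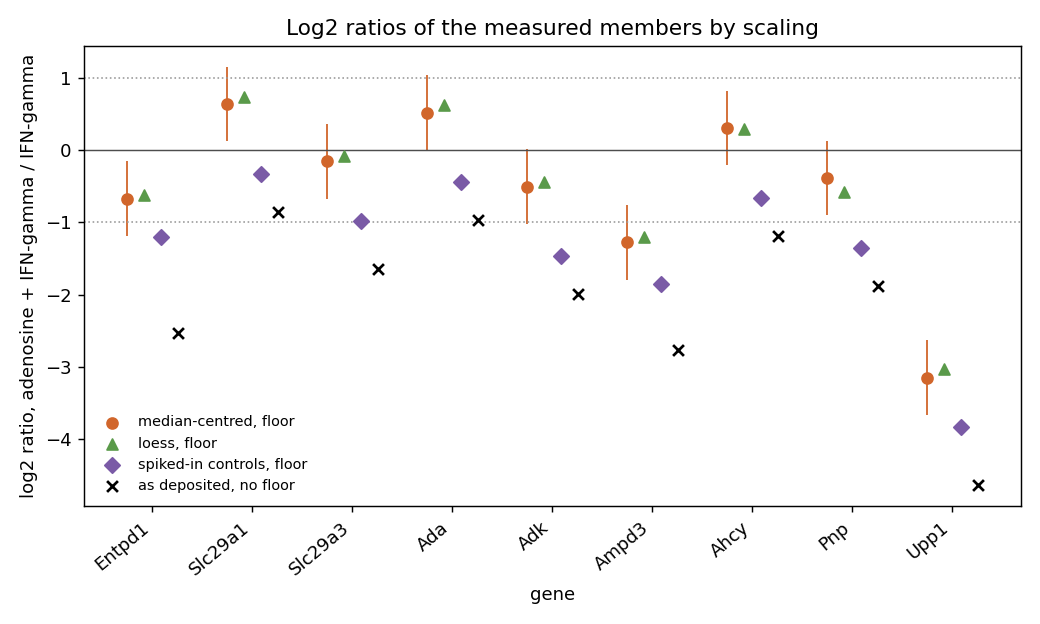
Log2 ratios (adenosine array over IFN-gamma array) of the 9 measured genes under 4 scalings, with a floor except for the deposited values. Bars on the median-centred points are the probe set SD of 0.52 over all genes, and dotted lines mark 2-fold. Upp1 and Ampd3 lie below -1 under all 4 scalings, whereas Slc29a1, Ada and Ahcy are above 0 with median centring and loess and below 0 with spiked-in scaling and as deposited.

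**Figure D3:**
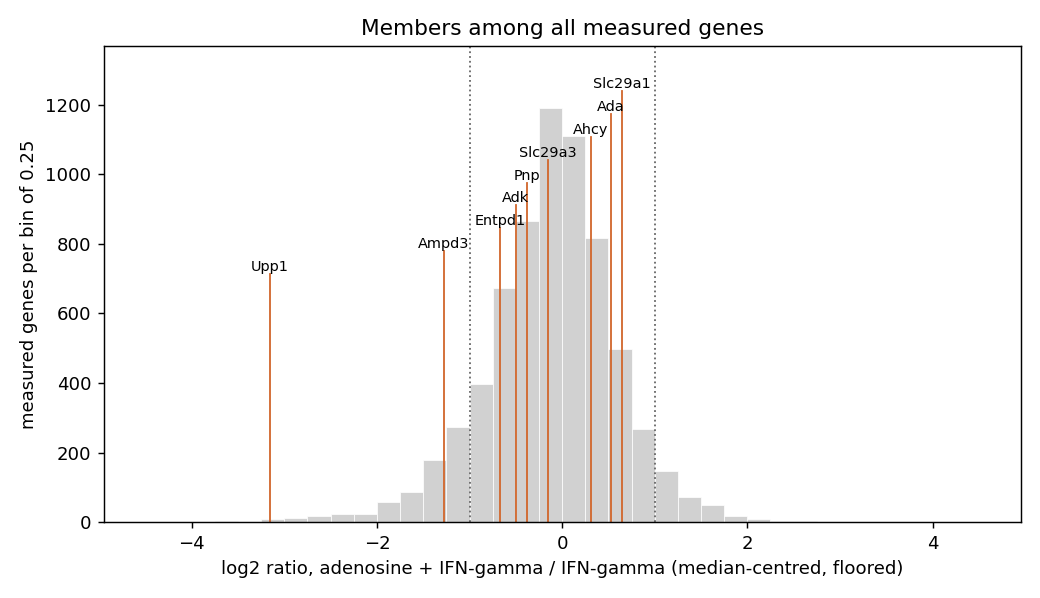
Histogram of median-centred, floored log2 ratios of the 6818 measured genes in bins of 0.25, with the 9 measured genes of the group as vertical lines whose heights only keep the names apart; dotted lines mark 2-fold. Upp1 at -3.15 stands in the lower tail, and the 7 genes short of 2-fold stand within the main body.

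Other genes of nucleoside and nucleotide metabolism were read from 8 lists of 99 genes, of which 71 were on the array as named here and 50 were measured. At least 2-fold lower were 5 of the 50 (10.0%) and at least 2-fold higher 2 (4.0%), shares near those of all measured genes. Their median log2 ratio was -0.09. None of the other nucleoside transporter genes that were found (3 of 5) was measured, and their signals with IFN-gamma ranged from 2.0 to 19.2.

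With median centring, the uridine kinase genes Uck1 and Uck2 lay on the side opposite to Upp1. Uck2, which phosphorylates uridine and cytidine, was at 1125.7 with IFN-gamma and 3260 with adenosine, 2.90-fold higher, and its deposited log2 ratio was 0.04. Its other measured probe sets gave log2 ratios of 0.32 and, with the IFN-gamma signal below the floor, at least 1.07. Uck1, of the same activity, was 2.65-fold higher (88.2 and 234) with a deposited log2 ratio of -0.09. Uckl1, a related gene, had a log2 ratio of -0.76. The Upp1 log2 ratio differed from that of Uck2 by -4.69 and from that of Uck1 by -4.56. Both were taken on signals without a floor, where a common scaling factor cancels. The SD of such a difference was 0.73, but it was not estimated for a signal as near the floor as that of Upp1 with adenosine. In the same list of pyrimidine genes, Cmpk2, a mitochondrial nucleotide kinase gene known as interferon-induced, had a log2 ratio of -2.29 (326.7 and 66.8), but its second probe set gave -0.57. The mitochondrial thymidine kinase gene Tk2, named after its value was seen, was at least 2.33-fold lower. This list had 2 genes 2-fold lower and 2 higher of 12 measured, with a median log2 ratio of 0.05 that was -1.45 as deposited and -0.92 with spiked-in scaling.

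Among genes of purine salvage and breakdown, 2 of 10 measured were at least 2-fold lower, 0 were higher, and the median log2 ratio was -0.35. These counts rest on the probe set read for each gene. Mtap was read at -0.16, and its 3 other measured probe sets ranged from -1.52 to 0.59. Dck was read at -0.74, and its 2 others gave -0.45 and 0.49. Samhd1, a deoxynucleotide triphosphohydrolase, was at 3249.8 and 960 (log2 ratio -1.76), and its 3 other measured probe sets ranged from -1.34 to -0.41, the latter a bound because its adenosine signal was below the floor. Dguok, the mitochondrial deoxyguanosine kinase gene, had a log2 ratio of -1.06, with an adenosine signal of 45.4 next to the floor. The list of nucleotidases and adenylate kinases also held the AMP deaminase gene Ampd2. Of its 9 measured genes 1 was 2-fold lower, the mitochondrial nucleotidase gene Nt5m (199.1 and 71.9, log2 ratio -1.47), and the median was -0.19. Ak3 was read at -0.40, and its 2 other measured probe sets gave 0.08 and 1.08. Ak4 was read at -0.03, and its 2 others gave -0.10 and 1.00. The list drawn up for other extracellular nucleotide hydrolysis had 4 measured genes, Entpd5, Entpd6, Entpd7 and Cant1. Entpd2, Enpp3, Enpp4, Alpl and Dpp4 of that list were below the floor on both arrays. Whether the products of the 4 measured genes act outside these cells was not tested. Their values are therefore no reading of extracellular ATP or ADP breakdown. By the probe set read for each gene, these 4 all lay short of 2-fold. Cant1 was read at -0.53, but its 2 other measured probe sets gave 0.949 and 1.197, the latter past 2-fold higher. Entpd5 was read at 0.23, and its 3 others ranged from -0.68 to 0.44. The largest ratio read among the 4 genes was that of Entpd7 (0.73). Its other probe sets gave 1.10 and -0.32, both bounds with 1 signal below the floor.

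Genes of de novo purine synthesis, the route that builds purines from small precursors, held no 2-fold difference among 9 measured. This holds for the probe set read for each gene. Paics was read at 0.34, and its 2 other measured probe sets gave -1.27 and 0.46. Gart was read at 0.73, and its 2 others gave -0.78 and 0.02. Of the 9, 6 lay above 0, with a median log2 ratio of 0.34, and the median was -1.16 as deposited and -0.63 with spiked-in scaling. Impdh1, an IMP dehydrogenase gene of guanine nucleotide synthesis, had the largest ratio, 0.98 (154.5 and 304). In the list drawn up for the methylation cycle, to which Ahcy belongs, none of 6 other measured genes was past 2-fold. The 6 were Ahcyl1, Ahcyl2, Mat2b, Mtrr, Cth and Gamt, so the list reached beyond enzymes of the cycle itself. Their median was 0.22, set by Ahcyl1 (0.21) and Ahcyl2 (0.23), genes related to Ahcy. It turned negative with spiked-in scaling (-0.75) and as deposited (-1.27). The largest ratio was that of Mtrr, a methionine synthase reductase gene, at -0.75.

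**Figure D4:**
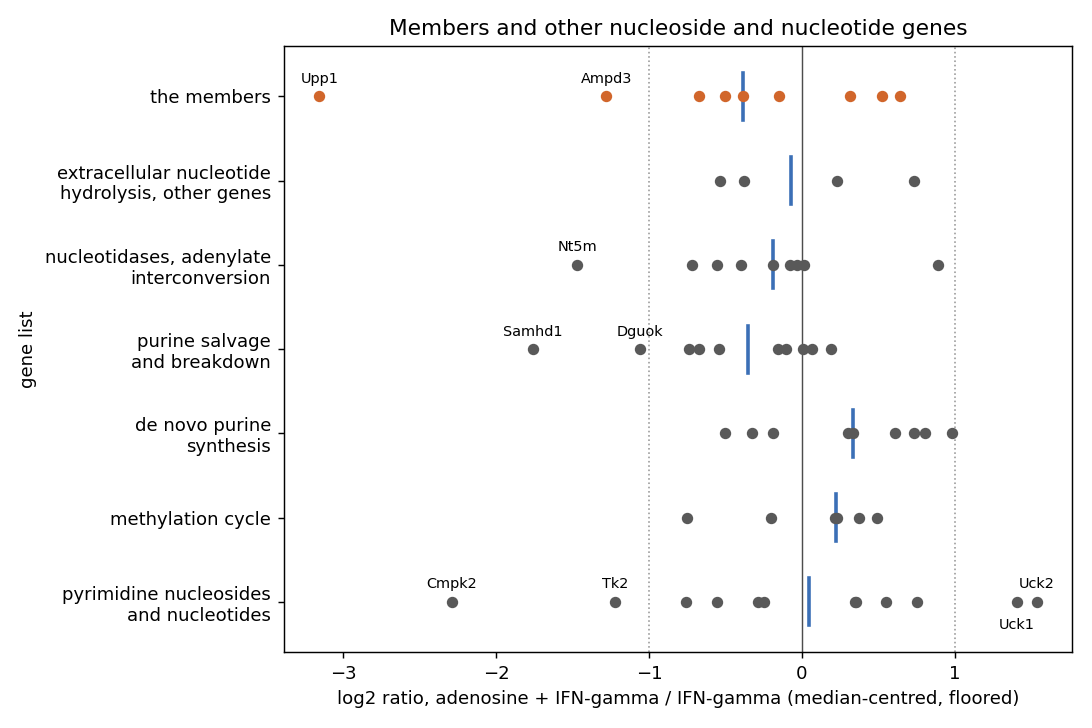
Median-centred, floored log2 ratios of the 9 measured genes (top) and of measured genes in 6 other lists of nucleoside and nucleotide metabolism, 1 point a gene; blue bars are list medians, dotted lines mark 2-fold, and genes past 2-fold are named. Upp1 at -3.15 is the lowest point in the plot, and Uck2 and Uck1 are the 2 past 2-fold on the higher side.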

How the data were processed

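The authors deposited an intensity on a linear scale for each of 22690 probe sets on each array, made with GCOS per the submitters' processing notes. The sources used here give no signal algorithm, scaling target or genome build, and detection calls were not used. Control probe sets (64) stayed out of gene results, and 20380 of the other 22626 carried 1 symbol, updated through Entrez identifiers to RefSeq (20351 matched).

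The log2 ratio was centred on its median over gene probe sets above the 50th percentile of deposited signals on both arrays. The floor was set after scaling. A gene's value came from whichever of its probe sets had the highest mean signal. The calculation was tested on simulated data. Python 3.11.15, pandas 2.3.3 and statsmodels 0.14.6 (loess, span 0.3) were used.

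With 1 array per treatment, genes were counted by size, at 2-fold. The genes named by rule were the 10 members and genes of each other list. From each list, up to 3 measured genes past 2-fold with the largest absolute log2 ratio were taken, or the 1 largest where none was. Further list genes, among them Uckl1, Tk2, Paics and Gart, were named outside this rule with their values known. The members, lists and motifs were chosen with earlier results of these data known, and the 7 pairs of genes set against each other after their values were seen. The number of arrays limits the precision. Alternatives were other scalings (none, all probe sets, trimmed mean, spiked-in controls, quantile and loess), a floor at the 33rd or at the 67th percentile, a pseudocount of 16, other readings of probe sets and other thresholds.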

Additional observations from a re-analysis of the deposited data

How the results depend on the processing

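No paired analysis was possible because the 2 groups hold 1 pooled array each, which also leaves no replicate to omit. In the values as deposited, all 10 genes described were measured and 7 were at least 2-fold lower, with a median log2 ratio of -1.40. Over all genes these values gave 5605 of 7117 lower and 10 higher (99.8% of calls lower, against 69.2% with median centring). With spiked-in scaling 5 of the 9 measured genes described were lower, and their median was -1.20. Over all genes that scaling gave 3538 of 6975 lower and 33 higher (99.1% of calls lower). Quantile scaling gave 570 lower and 396 higher over all genes (59.0%). The first pair of scalings moved the median of all measured genes to -1.50 and -1.01. With the floor at the 33rd percentile 599 of 9177 genes were higher and 944 lower. Among the lower were 3 of the 10 genes described, Entpd1 (-1.04) in addition to Upp1 and Ampd3. With the floor at the 67th, where 6 of the genes described were measured and Ampd3 was not, 1 of these was lower. Of all 5062 genes measured there, 328 were lower and 133 higher. At 1.5-fold, 3 of the 9 measured genes described were lower (Upp1, Ampd3 and Entpd1) and 1 was higher (Slc29a1). Of all 6818 measured genes, 1489 were lower and 879 higher at that threshold. At 3-fold, 1 of the genes described was lower (Upp1), with 202 and 67 over all. Upp1 was at least 2-fold lower in all 12 settings that keep the 2-fold threshold, the main one included, with log2 ratios from -4.15 to -1.39, the latter with the highest floor, which moved it most. Ampd3 was so in the 11 settings that measured it, from -2.17 to -1.04. The -2.17, from the deposited values, is a bound, as the adenosine signal of 16.1 lay below the floor of 24.5 there. Without a floor the deposited Ampd3 ratio was -2.77. Neither Upp1 nor Ampd3 changed sign. Ahcy, at 0.31 with median centring, was at -1.18 as deposited. Signals close to the floor limit Upp1 (with adenosine), Ampd3, Entpd1 and Slc29a3.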
